A study of Caenorhabditis elegans with 2 samples.

Results

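The regions described here are candidate binding regions of the homeodomain protein ALR-1 that lay many to a gene in Caenorhabditis elegans larvae. They were chosen by position in the list called on both replicates together (the pooled list). A pooled region was kept when the gene with the nearest protein-coding transcript start, at any distance from the region's point, was nearest for 7 or more pooled regions. The 21 regions nearest to alr-1 itself were left out. This gave 1327 of 12996 pooled regions (10.2%), around 140 genes, and no further filter was applied. They are called clustered regions and clustered genes below. The number of pooled regions per gene is therefore the choice itself, and its values are a description.

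The assay was ChIP-seq: chromatin fragments carrying the tagged protein were recovered with an antibody, and their DNA was sequenced. Both biological replicates were whole worms of mixed sex at the L2 larval stage, of the strain OP200 with the genotype unc-119(ed3) III; wgIs200, and they formed 1 group. All worms thus carried the unc-119 mutation and the integrated transgene with eGFP-tagged alr-1, and what drives the transgene in which cells is not given in the sources used here. Peak lists hold no expression values, so the labelled stage could not be checked against marker genes, and in whole worms a strong site in few cells and a weak site in many cannot be told apart.

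ALR-1 is the worm relative of Drosophila Aristaless and is known for roles in neuron development. Homeodomain proteins bind short AT-rich sequences, of which TAATTA is a common core. Several candidate regions around a gene can mark separate regulatory sequences in its introns and upstream sequence, but a ChIP-seq region by itself does not show that a sequence regulates the gene.

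On build ce11, the list of replicate 1 numbered 5071 candidates and that of replicate 2 numbered 7568. Pooled regions were all 320 bp wide. These lists mix peaks with background, because they feed a later step that keeps regions ranked alike in the replicates (the irreproducible discovery rate, IDR), so a candidate is not a called peak. The optimal IDR list held 103 peaks. Each region has a signal from the authors' caller, on a scale that is not stated. Ranks below are ranks by signal within a list, with 1 the strongest. Signals and ranks from different lists are set side by side, but their scales were not shown to be equal.

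Sequences within 100 bp of the point are shown for the 5 clustered IDR peaks with no annotated exon in the window, and for the strongest region of pde-4, which was not an IDR peak but held both motifs described further on. They come from the RefSeq copy of WBcel235, the assembly of ce11, plus strand, 5′ to 3′. Capitals mark GAGAGA or its reverse complement TCTCTC, and TGCGTCTC or its reverse complement GAGACGCA. The motifs can share bases, as in TGCGTCTCTC.
fkh-7, IV:5604582-5604782, intron of fkh-7: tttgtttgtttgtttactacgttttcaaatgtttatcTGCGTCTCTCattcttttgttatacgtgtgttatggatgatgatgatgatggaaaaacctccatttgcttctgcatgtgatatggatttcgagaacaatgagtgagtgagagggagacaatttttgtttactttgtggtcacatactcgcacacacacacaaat
Y39E4B.6, III:13068406-13068606, intergenic: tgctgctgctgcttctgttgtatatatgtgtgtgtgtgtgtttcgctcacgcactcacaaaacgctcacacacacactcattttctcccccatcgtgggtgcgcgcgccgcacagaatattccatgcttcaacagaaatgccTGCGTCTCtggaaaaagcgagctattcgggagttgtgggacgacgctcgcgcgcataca
pqn-41, III:1925261-1925461, intron of pqn-41: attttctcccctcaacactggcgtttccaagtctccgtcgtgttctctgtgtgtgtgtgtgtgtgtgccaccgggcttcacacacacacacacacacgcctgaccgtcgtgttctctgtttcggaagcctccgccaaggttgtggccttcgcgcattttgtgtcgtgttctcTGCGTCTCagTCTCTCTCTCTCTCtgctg
vhp-1, II:5326282-5326482, intron of vhp-1: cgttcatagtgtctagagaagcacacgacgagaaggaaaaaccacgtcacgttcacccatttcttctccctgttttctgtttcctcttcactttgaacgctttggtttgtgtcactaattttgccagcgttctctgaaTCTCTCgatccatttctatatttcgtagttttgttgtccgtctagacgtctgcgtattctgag
mdl-1, X:6750271-6750471, intron of the neighbouring gene abts-4: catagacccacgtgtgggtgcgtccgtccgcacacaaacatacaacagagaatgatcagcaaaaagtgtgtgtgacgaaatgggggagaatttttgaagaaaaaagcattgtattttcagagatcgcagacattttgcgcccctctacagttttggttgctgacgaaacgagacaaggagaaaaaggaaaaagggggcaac
pde-4, II:7642171-7642371, promoter of an internal pde-4 start: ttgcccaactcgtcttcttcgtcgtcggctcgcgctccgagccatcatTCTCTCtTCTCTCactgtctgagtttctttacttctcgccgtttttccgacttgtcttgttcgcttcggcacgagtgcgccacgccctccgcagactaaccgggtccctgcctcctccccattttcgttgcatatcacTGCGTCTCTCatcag

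Among these 6 windows, TGCGTCTC was in those of the fkh-7, Y39E4B.6 and pqn-41 peaks. The pde-4 window also held it, but was shown for that reason. This motif was picked after such sequences had been read, so its presence here is a description. In pqn-41 TGCGTCTC stood beside an unbroken run of TC repeats. The mdl-1 window held neither motif, and none of the 6 held TAATTA.

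The number of regions per gene fell off steeply. Of 7342 genes with any pooled region, 4634 had 1 and 1499 had 2. Genes at 7 or more made up 1.92% of genes with a region when alr-1 is included. Of the 140, 42 had exactly 7 regions, 50 had 8 or 9, 48 had 10 or more, and 12 had 15 or more. The 85 genes just outside the threshold, with 6 regions each, were like the 42 just inside in most measures. Their median signal was 4.42, against 4.38 inside, and 18.6% against 20.7% of their regions overlapped a region in both replicates. The sequence nearest to a start of the gene had a median length of 14540 bp outside and 14024 bp inside. IDR peaks numbered 9 among the 510 regions outside and 2 among the 294 inside.

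**Figure D1:**
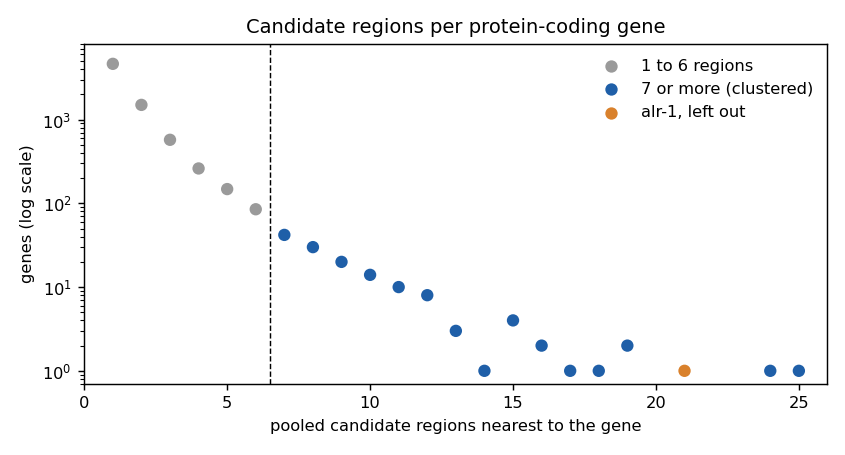
Number of protein-coding genes (y axis, log scale) against the number of pooled candidate regions nearest to them (x axis). The dashed line is the threshold of 7. Counts run down from 4634 genes with 1 region to single genes at 24 (lin-14) and 25 (egl-27), with no break at the threshold.

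The most regions lay around egl-27, which encodes a chromatin protein of the MTA family with roles in embryonic patterning. It had 25 pooled regions within 21895 bp on chromosome II, of which 14 were intergenic, 7 in promoters, 3 in introns and 1 in an exon. The strongest had a signal of 12.6 and the median was 6.64, so the cluster was made of many moderate regions with no IDR peak. Replicate 1 regions overlapped 12 of the 25 and replicate 2 regions 16, with 6 overlapped in both. The strongest region (II:6827495-6827814) lay 7353 bp upstream of a start and had an overlapping signal of 3.09 in replicate 1 and 4.05 in replicate 2. The next (II:6823989-6824308) had none in replicate 1 and 8.79 in replicate 2.

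Second was lin-14, a heterochronic gene whose nuclear protein sets the timing of larval cell fates and is known as a target of the microRNA lin-4. Its 24 regions lay within 19757 bp on the X chromosome, and 18 of them were in introns. Of these, 14 overlapped a replicate 1 region, 15 a replicate 2 region and 9 both, the highest count in both of any clustered gene. The strongest (X:11467352-11467671, an intron, 1952 bp downstream of a start) had a pooled signal of 19.6, with 5.37 in replicate 1 and 13.8 in replicate 2. A second intronic region (X:11473064-11473383) had 18.0, with 9.62 and 7.22. The order of both regions was thus opposite in the replicates. Some of these matches were shared: the regions of ranks 141 and 404 overlapped the same region in each replicate list.

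The 2 forkhead genes among the 15 genes with the most regions were fkh-9 with 19 and daf-16 with 17. In fkh-9, regions overlapped replicate 2 in 13 cases and replicate 1 in 4. Its strongest (X:3818634-3818953) had a pooled signal of 20.8, with 3.66 in replicate 1 and 15 in replicate 2, while the median of the gene was 3.67. One strong region thus stood over many weak ones. In daf-16, which encodes the FOXO factor of insulin signalling, 12 of 17 regions were intronic, the strongest had a signal of 9.86 and the median was 3.86. The strongest daf-16 region had only 2.23 in replicate 1 and 2.24 in replicate 2.

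F57G12.1 had 19 regions, as many as fkh-9, with 15 of them intergenic, and kin-1 had 18. The gene kin-1 encodes the catalytic subunit of protein kinase A, and all 18 regions lay in its own gene body. Its strongest region (I:14948641-14948960) had a pooled signal of 10.8, with 5.98 in replicate 1 and 3.43 in replicate 2. For pde-4, a cAMP phosphodiesterase of the same pathway, 11 of 13 regions lay in the gene body. The strongest pde-4 region had 17.7, with 6.35 in replicate 1 and 11.7 in replicate 2.

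H18N23.2 had 13 regions, like ppfr-1 and pde-4, and fell outside the 15 because its strongest region, at 16.4, was weaker than theirs. The other 9 of the 15 had between 13 and 16 regions. They were mdl-1, a MAD-like bHLH factor gene, vhp-1, for a MAP kinase phosphatase, mnk-1, for a MAP kinase-interacting kinase, scd-1, DH11.5, T28B11.1, sma-9, for a Schnurri-type zinc finger factor of TGF-beta signalling, ppfr-1, for a regulatory subunit of protein phosphatase 4, and pde-4. All 13 ppfr-1 regions were intronic, and 6 of them overlapped a region in both replicates. T28B11.1 was flat, with a highest signal of 8.26 and a median of 5.65, and 1 of its 15 regions overlapped a region in both. The 15 genes together held 254 regions, and 6 of them were on X.

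**Figure D2:**
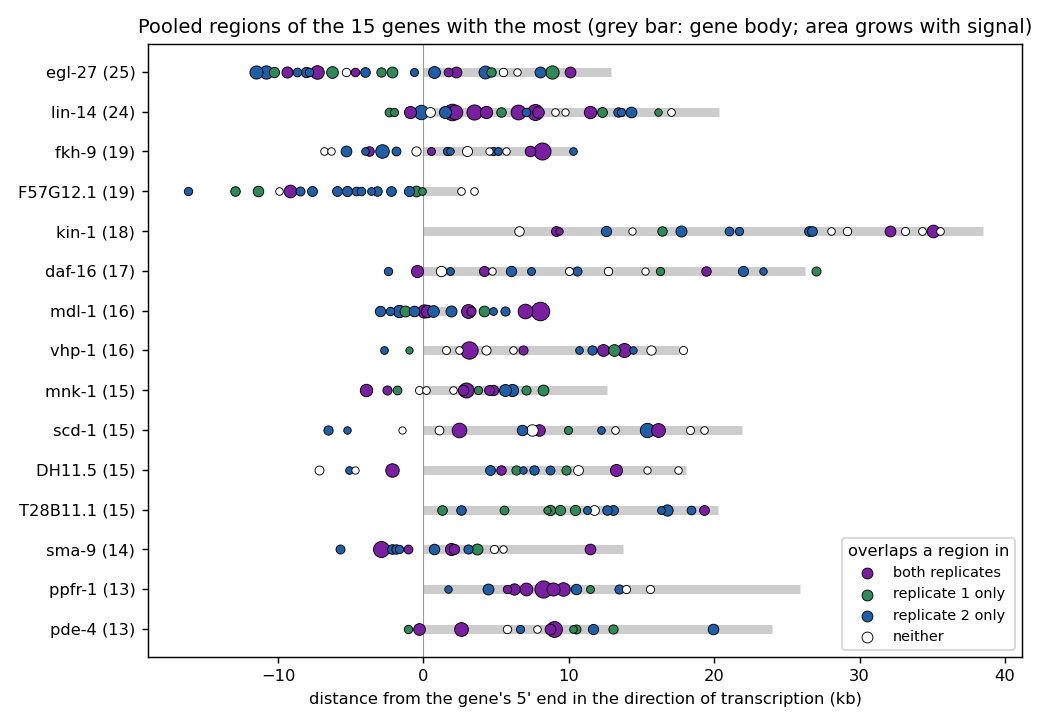
Pooled regions of the 15 genes with the most, by distance of the point from the gene's 5′ end in kb, with the direction of transcription to the right. Grey bars are gene bodies, point area grows with pooled signal, and colour gives the replicate lists with an overlapping region. Regions of kin-1 and ppfr-1 lay inside the gene body, most of those of F57G12.1 upstream, and lin-14 had the most regions overlapped in both replicates (9).

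Long genes were common among the 140. Their median gene length was 13996 bp, against 2790 bp for all genes with a pooled region and 2027 bp for all 19973 protein-coding genes. They had a median of 4 annotated transcript starts, against 1 for genes with a region, and 64 of them (45.7%) had 5 or more starts, against 5.49%. The sequence nearest to one of the gene's starts, its interval, had a median of 18346 bp and ran from 5501 to 64806 bp, against a median of 5268 bp. A longer interval has more room for regions, so length enters the choice.

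Counts were therefore also taken per 10 kb of the interval. The 140 intervals together covered 2.94% of the genome and held 4.50 regions per 10 kb, against 1.30 over the genome. All 140 genes were above the genome value, which the choice largely fixes. The range was wide, from 1.51 per 10 kb in egl-4, a cGMP-dependent kinase gene, to 14.5 in mstr-1. After mstr-1, the densest were sax-3, the Robo receptor gene of axon guidance, at 12.5, osm-11, for a secreted Notch co-ligand, at 11.9, mdl-1 at 11.3 and mnk-1 at 10.9. The sax-3 cluster lay outside the gene body, with 7 of 9 regions intergenic and 2 in promoters. Its strongest region had a pooled signal of 9.57, with 4.14 in replicate 1 and 4.84 in replicate 2.

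**Figure D3:**
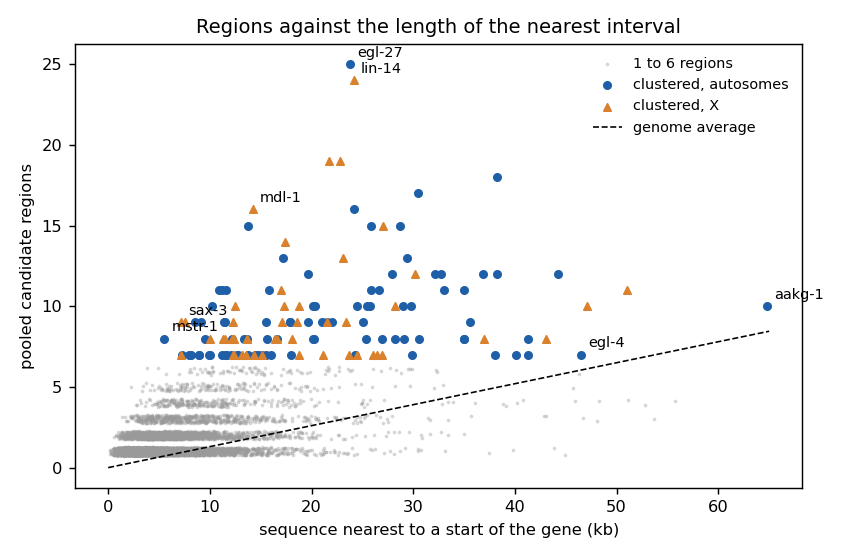
Pooled candidate regions per gene (y axis) against the length of sequence nearest to a start of the gene (x axis, kb), with small vertical jitter for genes with 1 to 6 regions. The dashed line is the genome average of 1.30 per 10 kb. All clustered genes lie above it, from egl-4 (7 regions, 1.51 per 10 kb) near the line to egl-27 (25 regions, 10.5 per 10 kb).

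Since long intervals set these genes apart, a second reference was used for the shares that follow. It held the 734 genes with 1 to 6 regions whose interval was at least 12469 bp, the lower quartile of the clustered genes, with 1880 regions. These are called long-interval genes. Their median interval was 15870 bp, against 18346 bp for the clustered genes, so they were not matched in length. Of the 140 clustered genes, 105 had an interval of at least 12469 bp. Of all 1096 protein-coding genes with such an interval, 256 (23.4%) had no pooled region.

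Within a cluster the regions were spaced apart. The gap from point to point had a median of 1250 bp over genes, from 533 bp in nhr-3 to 5004 bp. Of 1187 neighbouring pairs, 98 overlapped, in 72 genes. Pairs of clustered genes lay next to each other in 3 places. F57G12.1 and cab-1 together had 26 regions over 44960 bp of X, inx-1 and F01E11.3 had 19 over 27971 bp of X, and T28C12.6 and bcl-11 had 16 over 18916 bp of chromosome V. In these places a cluster of regions was divided between genes by the rule.

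Introns held the largest share of clustered regions. Intronic points made up 579 of 1327 (43.6%, exact 95% interval 40.9 to 46.3), against 21.5% of all pooled candidates and 35.3% (33.1 to 37.5) around long-interval genes. Promoters, which reached 1000 bp upstream and 200 bp downstream from each start, held 309 (23.3%, 21.0 to 25.7), against 40.3% and 25.3%. Exons held 73 (5.50%, 4.34 to 6.87), against 11.8% and 8.78%, and intergenic sequence 366 (27.6%, 25.2 to 30.1), against 26.4% and 30.6%. The low promoter share was thus close to that of long-interval genes, while the intronic share was above it. That reference was not matched in length, and the part of interval length in these shares was not tested. The exact 95% intervals treat regions as independent, which neighbours around a gene are not.

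Most clustered regions lay inside the gene they were assigned to. The point was in the gene's own body for 848 regions (63.9%), against 41.5% of all candidates and 54.5% around long-interval genes. All regions of 26 genes were inside the gene body and those of 6 genes were all outside. Over genes, introns held most of the regions of 50, intergenic sequence those of 33 and promoters those of 5. The unc-2 gene, for a presynaptic calcium channel, had 9 of 11 regions in introns. The apl-1 gene, for the worm relative of the amyloid precursor protein, had 6 of 8 in intergenic sequence.

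Replicate lists overlapped clustered regions more often than pooled candidates as a whole. A replicate 1 region overlapped 494 (37.2%, 34.6 to 39.9), where the value over all candidates was 30.9%. A replicate 2 region overlapped 779 (58.7%, 56.0 to 61.4), against 48.6%. Both did so for 267 (20.1%, 18.0 to 22.4), against 13.3% of all candidates and 10.5% (9.13 to 12.0) around long-interval genes. No region of either replicate overlapped 321 (24.2%), against 33.8%. The pooled list was called on the same reads as the replicate lists, which builds in some of the overlap. Neighbours also shared matches, since the 494 corresponded to 427 separate replicate 1 regions and the 779 to 702 of replicate 2.

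Replicate 2, which had the longer list, overlapped more regions than replicate 1 in 105 genes, fewer in 18 and as many in 17. At least 1 region was overlapped in both replicates in 110 genes, 4 or more in 18, and none in 30. The median was 2 such regions per clustered gene, against 0 over all genes with a pooled region. A gene with more regions has more that can be overlapped, so these counts per gene follow the choice in part. After lin-14 with 9, the highest counts were 6, in egl-27, mdl-1, mnk-1, ppfr-1 and fkh-7. The gene ntl-3, for a subunit of the CCR4-NOT complex, had 6 of 7 regions overlapped in replicate 1 and none in replicate 2. In mbl-1, the Muscleblind splicing factor gene, 1 of 12 was overlapped in replicate 1 and 8 in replicate 2. Nearest genes were also assigned in each replicate list alone, with alr-1 left out. In replicate 1, 16 genes reached 7 regions, all of them among the 140. In replicate 2, 51 genes did, of which 50 were among the 140. The pooled list was called on the same reads, which builds in some of this sharing. In replicate 1 these genes were led by lin-14 with 15 and egl-27 with 13. Those of replicate 2 were led by egl-27 with 17 and F57G12.1 with 16.

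Clustered regions had a median signal of 4.52 (quartiles 3.30 and 6.90), against 3.89 over all candidates and 3.86 around long-interval genes. Of the 500 strongest pooled regions 62 were clustered, which is 4.67% of clustered regions, against 3.85% of all candidates. They lay over 47 genes. Within a gene the strongest region had a median of 2.41 times the gene's median signal, from 1.18 to 7.76 times. The gene with the steepest ratio was fkh-7.

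Few clustered regions were optimal IDR peaks. There were 8 (0.603%, 0.261 to 1.18), against 0.793% of all pooled candidates and 0.585% (0.292 to 1.04) around long-interval genes. They belonged to 7 of the 140 genes (5%), against 96 of 7342 genes with a region (1.31%). A gene with more regions has more that can be an IDR peak, so the share per gene follows the choice in part.

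The fkh-7 gene, for a forkhead factor, had 2 of these peaks among its 12 regions. The stronger, of rank 5 in the pooled list (IV:5604522-5604841), is the intronic sequence shown first above. Its pooled signal was 37.3, with 15.7 in replicate 1 and 21.3 in replicate 2. The other (IV:5607342-5607661) had 25.2, with 11.5 and 12.1. Both were strong in both replicates, and the median over the gene's regions was 4.81.

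The egl-9 gene, for the prolyl hydroxylase that controls the hypoxia factor HIF-1, had a peak 1740 bp upstream of a start (V:10466617-10466936). Its pooled signal was 31.2, with 13.3 in replicate 1 and 17.0 in replicate 2. The next strongest of the 7 egl-9 regions had 8.77, so a single strong region led this cluster.

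The mdl-1 peak lay 8020 bp downstream of the mdl-1 start, in an intron of abts-4, which encodes an anion transporter (X:6750211-6750530). Its signal was 24.8, with 4.45 in replicate 1 and 11.8 in replicate 2. The second strongest mdl-1 region was also in abts-4, and 3 of the 16 lay inside another gene, so nearness to mdl-1 does not tie them to that gene.

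The Y39E4B.6 peak had a signal of 24.6 with 17.9 in replicate 2 and no region in replicate 1. It was the only one of the 8 without a replicate 1 region, while all 8 had one in replicate 2. The apl-1 peak (X:5121868-5122187) had 22.7, with 7.62 in replicate 1 and 14.8 in replicate 2. For pqn-41, a gene for a glutamine- and asparagine-rich protein, the values were 22.0, 11.0 and 10.9. For vhp-1 they were 21.6, 2.39 and 17.6, so replicate 1 held only a weak region there.

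**Figure D4:**
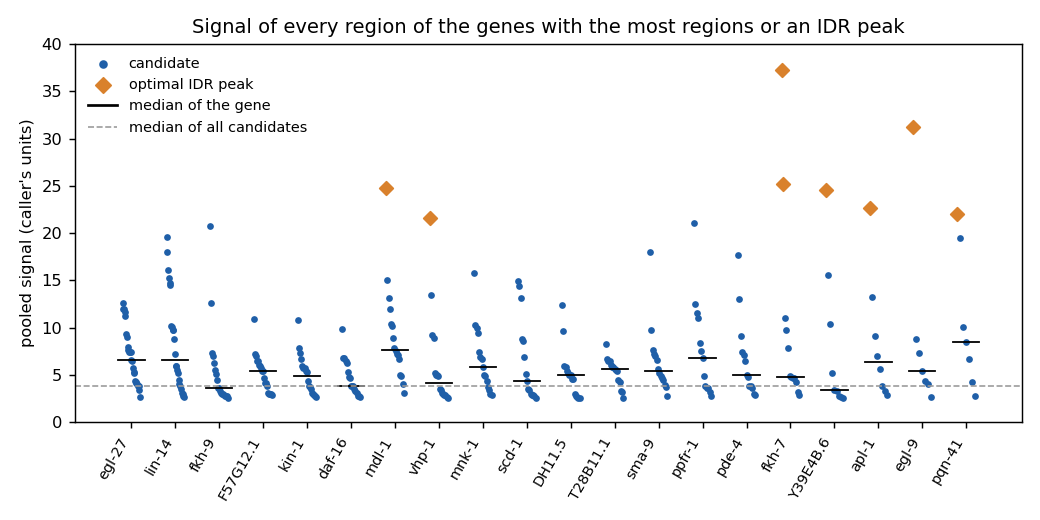
Pooled signal (y axis, caller's units) of each region of the 15 genes with the most regions and of the genes with an optimal IDR peak. Points are regions, diamonds are IDR peaks, black lines are gene medians and the dashed line is the median of all candidates, 3.89. The IDR peaks lie between 21.6 (vhp-1) and 37.3 (fkh-7), while egl-27, with the most regions, has none above 12.6.

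Chromosome X carried 50 of the 140 genes (35.7%), against 19.7% of genes with a region. It held 476 clustered regions (35.9%, 33.3 to 38.5), against 24.0% of all candidates and 26.5% (24.6 to 28.6) around long-interval genes. Chromosome I held the fewest, 122 (9.19%), against 15.1%. The X genes included lin-14, fkh-9, mdl-1, sma-9, sax-3, unc-2 and the steroid receptor gene daf-12. The same chromosome makes up 17.7% of the genome.

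**Figure D5:**
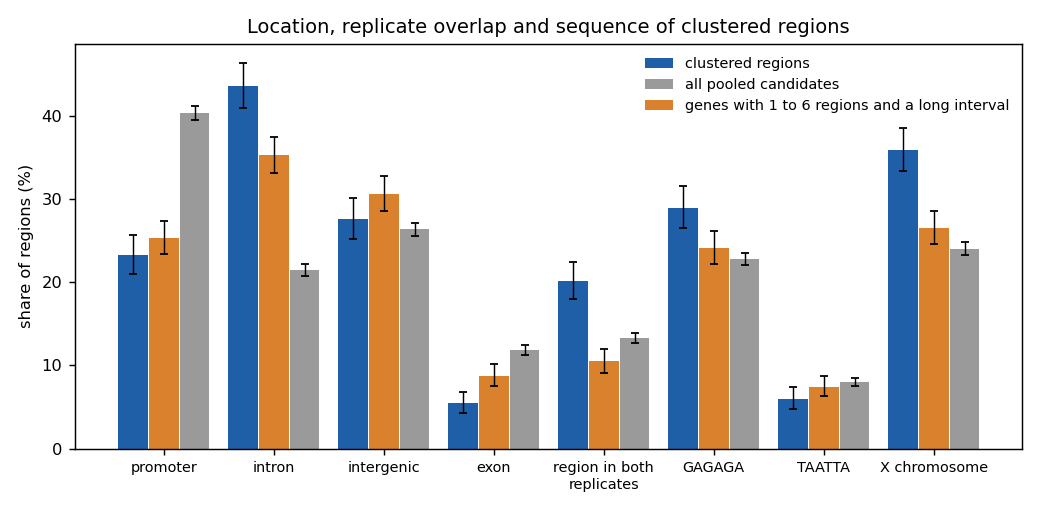
Share of regions (y axis, %) in each class for clustered regions, for regions of genes with 1 to 6 regions and a long interval, and for all pooled candidates. Error bars are exact 95% intervals. Clustered regions are highest for introns (43.6%), for overlap in both replicates (20.1%), for GAGAGA (28.9%) and for chromosome X (35.9%), and lowest for exons (5.50%) and TAATTA (5.95%).

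The homeodomain core TAATTA was found within 100 bp of the point, on either strand, in 79 clustered regions (5.95%, 4.74 to 7.36). It was in 7.97% of all candidates, 7.45% (6.30 to 8.73) of regions around long-interval genes and 9.32% of windows of 201 bp tiled over the genome. Clustered regions were also richer in GC, with a median of 39.3% against 37.8% over all candidates and 38.3% around long-interval genes, and the part of GC content in the TAATTA share was not tested. None of the 8 IDR peaks held TAATTA. At ranks 1 to 500 it was in 1 of 62 clustered regions (1.61%) and in 6.40% of all candidates, and beyond rank 5000 in 7.22% and 8.54%.

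GAGAGA or its complement was found in 384 clustered regions (28.9%, 26.5 to 31.5). The share was 22.8% over all candidates, 24.1% (22.2 to 26.1) around long-interval genes and 9.99% of genome windows. By rank it went from 46.8% of clustered regions at ranks 1 to 500 to 22.0% beyond rank 5000, and over all candidates from 43.2% to 17.9%. GC content moved with rank as well, from a median of 46.3% to 37.8% in clustered regions, and its part was not tested. Of the 8 IDR peaks, 6 held the motif.

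The octamer TGCGTCTC was picked after the sequences of strong clustered regions had been read, so its share among them is a description. It was in 53 clustered regions (3.99%, 3.01 to 5.19) around 47 genes, against 4.36% of all candidates, 3.99% (3.15 to 4.98) around long-interval genes and 0.979% of genome windows. At ranks 1 to 500 it was in 13 of 62 clustered regions (21.0%) and in 17.0% of all candidates. The clustered share was the lower one at ranks 501 to 2000 (6.70% and 7.93%), at ranks 2001 to 5000 (3.01% and 5.47%) and beyond (2.27% and 2.49%). Of the 8 IDR peaks, 4 held it, those of fkh-7, egl-9, Y39E4B.6 and pqn-41. Such matches are letters in a window and were not shown to be bound.

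The clustered genes were then grouped by 17 gene lists. The lists were not shown to hold every gene of their class. Clustered genes of a class may thus be missing, and the counts cover listed genes only. Over all genes with a region, 1.92% had 7 or more, alr-1 included. Among lists with a clustered gene, the share of members with a region ran from 1.39% (chromatin regulators) to 37.5% (forkhead genes). Transcription factor genes of 5 lists made up 23 of the 140 (16.4%), against 264 of 7342 genes with a region (3.60%) and 47 of 734 long-interval genes (6.40%). Forkhead genes had 3 of the 8 members with a region, fkh-9, daf-16 and fkh-7, with 48 regions in all. Nuclear hormone receptor genes had 7 of 102, nhr-14, nhr-3, daf-12, nhr-21, nhr-71, nhr-34 and nhr-1. Of these nhr-3 had the strongest region, with a pooled signal of 19.5, 10.2 in replicate 1 and 9.94 in replicate 2. The bHLH genes had 2 of 18, mdl-1 and the TFEB-type gene hlh-30.

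Other developmental factor genes had 8 of 88, egl-27, lin-14, crh-1, atf-7, dmd-6, bcl-11, tra-1 and hbl-1. The list counts egl-27 here and among the 23 transcription factor genes, although its product is a chromatin protein. The gene crh-1 encodes the CREB factor, tra-1 the Gli-type factor of sex determination and hbl-1 the Hunchback-like heterochronic factor. In crh-1, 9 of 12 regions were intronic and 2 overlapped a region in both replicates. Homeobox genes had 3 of 48 members (6.25%), unc-62 with 9 regions, ceh-37 with 7 and ceh-13 with 7. They encode a Meis-type cofactor, an Otx-type factor and the labial Hox protein. The strongest ceh-37 region had a signal of 17.0, with 2.58 in replicate 1 and 9.36 in replicate 2, and the gene's median was 3.21. In ceh-13 the median was 9.01, the strongest had 12.1, and 5 of 7 were intergenic.

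Genes of axons, channels and synapses made up 21 of the 140 (15%), against 4.22% of genes with a region and 11.6% of long-interval genes. The part of interval length in this share, and in that of transcription factor genes, was not tested. Axon guidance and adhesion genes had 7 of 63, ptp-3, sax-7, unc-76, sax-3, casy-1, nrx-1 and hmr-1. They include the LAR phosphatase ptp-3, the L1-type adhesion molecule sax-7, neurexin (nrx-1) and cadherin (hmr-1). The strongest sax-7 region (IV:8066580-8066899) had a signal of 20.2, with 10.5 in replicate 2 and no region in replicate 1.

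Synaptic and G protein genes had 9 of 106, kin-1, pde-4, unc-43, unc-13, ida-1, unc-10, gpb-1, egl-4 and unc-70. Among them unc-10 encodes the active zone protein RIM, gpb-1 a G protein beta subunit and unc-70 beta-spectrin. The unc-43 gene, for the kinase CaMKII, had 11 regions, 4 of them overlapped in both replicates. Its strongest (IV:10342265-10342584) had a signal of 15.5, with 6.04 in replicate 1 and 14.9 in replicate 2. For unc-13, the vesicle priming gene, the strongest had 12.0, with 4.28 in replicate 2 and none in replicate 1. Channel and receptor genes had 5 of 141 (3.55%). They were the calcium channel gene unc-2, the innexin genes inx-1 and unc-9, the tyramine receptor gene ser-2 and the potassium channel gene unc-103. None of the 11 inx-1 regions was overlapped in both replicates.

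Signalling genes had 3 of 66 members (4.55%), sma-9, osm-11 and the Patched gene ptc-1. The chromatin regulator list had 1 of 72 (1.39%), the histone deacetylase gene hda-4, and RNA regulators 2 of 52 (3.85%), mbl-1 and ntl-3. The remaining 6 lists had no clustered gene, while 1.92% of all genes with a region had 7 or more. They were neuropeptide and peptide receptor genes (111 members with a region), chemoreceptor genes (168), intestine and metabolism genes (148), ribosomal protein and translation genes (96), cuticle collagen and moulting genes (77) and muscle genes (38). Interval length differed between the lists, with a median over all members of 1950 bp for ribosomal and translation genes, 3192 bp for chemoreceptor genes, 6745 bp for neuropeptide genes and 10432 bp for axon guidance and adhesion genes. The parts of interval length and list size in these counts were not tested. In all, 50 of the 140 genes (35.7%) were in a list, against 19.1% of genes with a region and 27.7% of long-interval genes.

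Annotated tRNA, rRNA, snRNA or snoRNA genes overlapped 12 clustered regions (0.904%), against 1.96% of all candidates, and a miRNA gene overlapped 1 (0.0754%), against 0.185%.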

How the data were processed

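The authors used a control library and called candidates in each replicate and in both combined, then derived the optimal IDR list, per the file notes. No source used here names the aligner, the peak caller or the IDR threshold. The deposited lists give a signal per region on an unstated scale and, by the file format, a −log10 q-value, and the deposited offset gives the point. Only signal was used for ranking. The lists hold no read counts, so depth is unknown. The ce10 lists were not used here.

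Regions on ce11 were assigned to the nearest transcript start of 19973 protein-coding genes (Ensembl release 115, WBcel235, 6 chromosomes). IDR peaks were matched to pooled regions by identical coordinates, and replicate regions by an overlap of at least 1 bp. Places were called as promoter, exon, intron, then intergenic. Motifs were searched on both strands within 100 bp of the point. Shares have exact Clopper-Pearson 95% intervals, which cover counting error and treat regions as independent. No test was made, because regions are not replicates and there was 1 group.

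The members and gene lists were chosen with earlier results of these data known. Named genes were the 15 with the most regions, those with an IDR peak, the 5 with the most regions overlapped in both replicates, the 5 densest and up to 4 of each list. The other genes of lists or pairs were named to complete their counts. TGCGTCTC, the long-interval genes, the genome windows and the grouping of lists were chosen after the data were seen. Alternatives covered the threshold, gene assignment, merging of touching regions, the list above its median rank, each replicate alone, overlap, promoter and motif windows, and the definition of strong peaks. The code was tested on simulated data and ran under Python 3.11.15, with scipy 1.17.1 for intervals, pandas 2.3.3 and numpy 2.4.6 for tables, and matplotlib 3.10.9.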

Additional observations from a re-analysis of the deposited data

How the results depend on the processing

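Values are for clustered regions, and moves were judged against the exact 95% interval or, for counts, a factor of 1.5. No paired analysis was possible because both replicates formed 1 group. The count of 140 genes and 1327 regions moved most when replicate 2 was left out, to 16 genes with 140 regions. Each replicate list alone is shorter than the pooled list. Without replicate 1 the count was 51 genes with 456 regions. It was 225 genes for 6 or more regions per gene, and 48 genes with 613 regions for 10 or more, where introns held 52.0%, intergenic sequence 20.1%, and the median signal and rank were 4.69 and 4983. It was 43 genes with 369 regions when starts of every biotype competed, and 68 with 596 for regions within 3000 bp of a start. For regions above the list's median rank it was 38 genes with 350 regions, of which 33.1% overlapped a region in both replicates. No such share was taken over all candidates above that rank. Overlap in both replicates fell with rank, from 72.2% of all candidates at ranks 1 to 500 to 2.98% at ranks 5001 to 12996. In clustered regions it fell from 82.3% to 6.37%, and the part of rank in the 33.1% was not tested. An overlap of at least 50% of the region gave 32.2% for replicate 1, 51.9% for replicate 2 and 13.8% for both. Over all candidates these were 27.6%, 44.6% and 9.60%. Promoters from 500 bp upstream to 100 bp downstream held 13.4%, introns then 49.3% and intergenic sequence 30.6%. Over all candidates the shares were 27.7%, 25.1% and 32.7%. With promoters reaching 2000 bp upstream the clustered shares were 36.9%, 35.0% and 22.9%, against 55.6%, 16.7% and 18.4% of all candidates. Windows of 50 and 250 bp gave 3.24% and 18.2% for TAATTA, against 4.22% and 20.7% of all candidates, and 15.4% and 50.1% for GAGAGA, against 12.9% and 39.4%. For TGCGTCTC, added later, they gave 2.11% and 6.93%, against 2.50% and 7.26% of all candidates. Median GC in 250 bp was 38.3%, against 36.7% over all candidates. With the 500 strongest regions in place of IDR peaks the share was 4.67%. The remaining 53 values stayed within those bounds. Read depth and the caller's scale are unknown, which limits how signals can be read.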
